A study of Mus musculus with 6 samples.

Results

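The platelet-derived growth factor (PDGF) receptor and ligand genes were measured by bulk RNA sequencing in mouse embryonic fibroblasts (MEFs). The 7 genes were the receptors Pdgfra and Pdgfrb, the receptor-like gene Pdgfrl, and the ligands Pdgfa, Pdgfb, Pdgfc and Pdgfd. They were found by matching the Ensembl identifiers of the expression table to these symbols in the GENCODE annotation, which located all 7 among 56953 genes. Of these, 6 passed the filter on low values (10 or more normalized counts in 3 or more libraries), as did 14096 genes in all, and Pdgfd did not. The study compared 3 libraries of wild-type (WT) MEFs with 3 libraries of MEFs labelled GαqKO, which the study's methods describe as knockout for both Gαq and Gα11, the G proteins that couple many receptors to phospholipase C. Both kinds of MEFs came from another laboratory. The study's general culture methods give DMEM with fetal bovine serum for them, and serum itself contains PDGF. Its RNA methods do not state an added stimulus, the cell density or the time in culture of these samples. The study's methods state 3 biological replicates per genotype and do not say how many lines or embryos stood behind them.

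PDGFs are secreted dimers of A, B, C or D chains that bring 2 receptor chains together, after which the receptors phosphorylate themselves on tyrosine and recruit signalling proteins. The A and C chains bind the α receptor (Pdgfra), the B chain binds both receptors, and the D chain acts mainly on the β receptor (Pdgfrb). In mesenchymal tissue the pathway is known for driving the growth and migration of fibroblasts and for the recruitment of pericytes and smooth muscle cells by B chains.

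Expression is given as normalized counts, which are read counts per gene divided by 1 size factor per library. The sums per library ran from 11392429 to 11483486, and the reads recovered from 5 of the 6 libraries numbered 9853000 to 12229175. Gna11, which encodes Gα11, had 2140.6, 2179.9 and 2123.2 normalized counts in WT and 472.3, 463.7 and 418.9 under the GαqKO label (log2 fold change -2.25, adjusted p = 9.16e-13, limma). Gnaq, which encodes Gαq, had 1665.5, 1660.2 and 1746.6 in WT against 1959.7, 1930.9 and 1888.2 (log2 fold change 0.19, adjusted p = 0.00212, limma). The Gnaq transcript count was therefore not lower in the libraries labelled GαqKO, and a count over the whole gene does not show whether a deleted exon was present. The Y-linked genes Ddx3y, Eif2s3y, Kdm5d and Uty were at 0 in every GαqKO library and between 262.3 and 1238.7 in the WT libraries, so the lines also differed outside the targeted genes, and that difference cannot be told apart from the genotype. Fibroblast markers such as Vim and Col1a1 were high in all 6 libraries, while Thy1 averaged 0.7 in WT and 64.9 in GαqKO and Lum was at or under 10 throughout.

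The sequence upstream of Pdgfra, the gene with the largest rise among the members, is shown with that of Pdgfc, a member that changed little. Each was read 5′ to 3′ on the gene's own strand from GRCm39, in the 250 bases before the start of the Ensembl canonical transcript, without bases that are exonic in other transcripts of the gene. No letters are in capitals, because none of the motifs searched was found.
Pdgfra, chr5:75312672-75312833, plus strand: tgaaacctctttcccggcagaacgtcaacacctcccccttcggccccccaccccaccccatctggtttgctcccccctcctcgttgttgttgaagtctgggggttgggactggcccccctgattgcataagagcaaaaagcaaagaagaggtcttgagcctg
Pdgfc, chr3:80943418-80943667, plus strand: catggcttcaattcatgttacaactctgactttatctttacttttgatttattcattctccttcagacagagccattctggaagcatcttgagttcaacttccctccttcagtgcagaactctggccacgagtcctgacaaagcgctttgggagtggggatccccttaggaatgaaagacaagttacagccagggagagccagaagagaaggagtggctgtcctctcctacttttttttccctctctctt

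The windows of Pdgfra and Pdgfc held no match to TATAAA, found in 11.9% of 21770 protein-coding promoters of the same length, or to GGGCGG, found in 36.3%. They held no match to the CCAAT box, found in 36.5%, to TGANTCA, found in 6.2%, or to the CArG box, found in 1.4%. The Pdgfrl window held none of these either, and those of Pdgfrb and Pdgfd held 1 match to the CCAAT box each. All motifs were searched on both strands. Over the full 250 bases the GC content was 54.0% for Pdgfra and 45.6% for Pdgfc, beside a median of 53.2% over all promoters, and CpG pairs numbered 4 and 2 beside a median of 8. In contrast, the Pdgfa window, all of it exonic in other Pdgfa transcripts, had a GC content of 75.6% with 28 CpG pairs and 1 match to GGGCGG. Pdgfra has 11 annotated starts and Pdgfc has 9, so these windows cover 1 start each, and the absence of a match says only that these letters are not in the window.

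The α receptor gene was close to the lower end of measured expression in WT MEFs and among the more abundant transcripts in GαqKO MEFs. Pdgfra (ENSMUSG00000029231.16, chr5:75311994-75358876, plus strand) had 21.9, 17.5 and 19.3 normalized counts in WT and 2328.8, 2356.4 and 2273.9 in GαqKO. The groups were far apart and each was narrow. The ratio of the means was 118, from 19.6 ± 2.2 in WT to 2319.7 ± 42.0 in GαqKO (SD, n = 3). The log2 fold change of log2(normalized count + 1) was 6.82 ± 0.104 (SE), with an adjusted p of 8.44e-15 (limma with Benjamini-Hochberg adjustment), and it ranked 31 from the highest among the 14096 genes tested. Per kilobase of exon, which allows genes to be compared, Pdgfra rose from 1.59 ± 0.181 to 188 ± 3.41, that is from percentile 4.2 to percentile 79.5 of the tested genes. The WT values rested on 21, 18 and 19 reads, with exact 95% Poisson intervals of 13.0 to 32.1, 10.7 to 28.4 and 11.4 to 29.7. These intervals cover counting error only. The transcript was therefore detected in each WT library, at a low level.

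**Figure D1:**
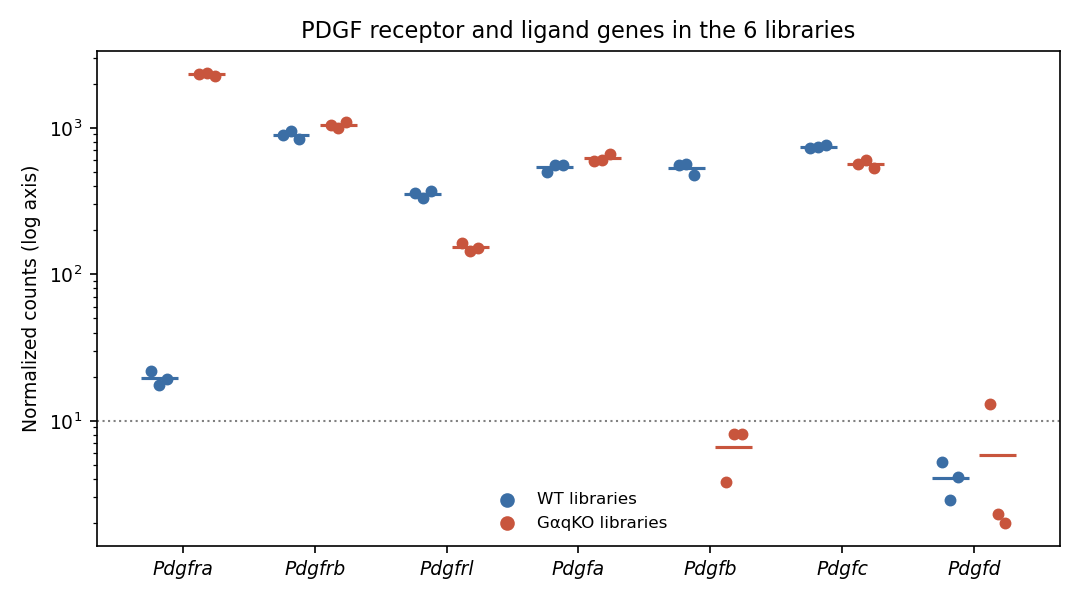
Normalized counts (log axis) of the 7 genes in the 3 WT and 3 GαqKO libraries, 1 point per library, with bars at the group means and a dotted line at the filter of 10. Pdgfra rose from 17.5 to 21.9 in WT to between 2273.9 and 2356.4 in GαqKO, Pdgfb fell to 3.8 to 8.1, and the GαqKO points of Pdgfd lie on both sides of its WT points.

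The β receptor gene changed little by comparison. Pdgfrb (ENSMUSG00000024620.12) had 897.0, 946.2 and 833.6 normalized counts in WT and 1048.0, 1003.6 and 1087.6 in GαqKO. Every GαqKO library was above every WT library, but the gap between the groups was narrow. The log2 fold change was 0.23 ± 0.06 (SE), adjusted p = 0.0038 by limma, and DESeq2 on the recovered reads of 5 libraries gave 0.21 with an adjusted p of 0.0698. Pdgfrb was expressed at 110 ± 6.97 normalized counts per kb in WT and 129 ± 5.19 in GαqKO (SD, n = 3).

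The third gene of this group encodes a secreted protein that resembles the extracellular part of the PDGF receptors and has no kinase. Pdgfrl (ENSMUSG00000031595.10, chr8:41379147-41444594, plus strand) had 357.1, 333.2 and 368.5 normalized counts in WT and 164.3, 144.5 and 150.0 in GαqKO. All GαqKO values lay under the lowest WT value. Pdgfrl fell, with a log2 fold change of -1.20 ± 0.096 (SE, adjusted p = 9.14e-08, limma). The spans of other annotated genes, introns included, cover 20.9% of its exon length. Among them was Mtus1 on the opposite strand, which also fell, from 197.4 ± 13.4 to 39.7 ± 13.3 (SD, n = 3; log2 fold change -2.33). The library kit marks strand, the strand setting of the counting was not given in the sources used here, and the share of Pdgfrl reads that Mtus1 could have supplied was not tested.

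Together the receptor values turned the balance of the pair. The log2 ratio of Pdgfra to Pdgfrb counts was -5.35, -5.76 and -5.43 in the WT libraries and 1.15, 1.23 and 1.06 in the GαqKO libraries. Every ratio changed side, and the groups differed by 6.66 on the log2 scale (exact permutation test, two-sided, p = 0.1, the smallest that 3 against 3 libraries can give). Per kilobase of exon, Pdgfra made up 1.43% ± 0.201 of the summed receptor transcripts in WT and 59.3% ± 1.4 in GαqKO (SD, n = 3). The sum of both receptors was 112 ± 6.91 normalized counts per kb in WT and 318 ± 2.0 in GαqKO, 2.84 times as high (exact permutation p = 0.1, again the smallest possible). With the length of the canonical transcript in place of all annotated exons, the share of Pdgfra was 1.77% in WT and 64.5% in GαqKO.

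Among the ligands, the transcript of the B chain was nearly lost in GαqKO MEFs. Pdgfb (ENSMUSG00000000489.8, chr15:79880009-79899181, minus strand), the ligand that binds both receptors, had 556.6, 564.4 and 479.4 normalized counts in WT and 3.8, 8.1 and 8.1 in GαqKO. The WT level was 80.4 times the GαqKO level by the ratio of means, 533.5 ± 47.0 against 6.6 ± 2.5 (SD, n = 3). The groups did not come near each other, and the spread in GαqKO was wide relative to its mean. The log2 fold change was -6.19 ± 0.243 (SE, adjusted p = 5.74e-11, limma), which ranked 103 from the lowest of 14096 genes. Pdgfb passed the filter through its WT values alone, so its p-value and rank only describe the size of the fall. The GαqKO values rested on 4 and 7 reads in the 2 libraries with recovered reads, with exact 95% Poisson intervals of 1.09 to 10.2 and 2.81 to 14.4. At so few reads the fitted value moved with the pseudocount, from -6.29 at 0.5 to -5.55 at 5. Per kilobase of exon, Pdgfb was 126 ± 11.1 in WT, at percentile 70.2 of tested genes, and 1.56 ± 0.587 in GαqKO, at percentile 5.3.

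Some epithelial markers were also lower in GαqKO. In the list of 7 epithelial genes, 2 passed the filter, which they did through their WT values alone, and went from high to near 0, Krt14 from 258.0 ± 4.0 to 1.1 ± 1.2 and Cdh1 from 238.2 ± 3.1 to 8.0 ± 2.7 (SD, n = 3), and the summed level was 515.0 to 544.0 in WT and 10.1 to 23.1 in GαqKO. Krt8 had 14.6, 30.1 and 7.1 normalized counts in WT and 0.0, 1.2 and 1.0 in GαqKO, and Krt18 had 18.8, 15.5 and 9.2 against 1.9, 1.2 and 0.0, neither of them tested. Epcam, Krt5 and Cldn4 were at or under 10 in every library. Mural cell markers summed to 1431.1 to 1633.9 in WT and 314.6 to 362.5 in GαqKO, with Rgs5, Cspg4, Myh11, Kcnj8 and Abcc9 at or under 10 throughout. Of the 4 tested, Mcam and Acta2 were lower, and Des and Notch3 were not called. Mcam went from 734.3 ± 62.9 to 7.6 ± 2.7 and Acta2 from 714.7 ± 79.6 to 266.4 ± 18.8 (SD, n = 3). Mcam needed its WT values to pass the filter. Endothelial markers summed to 15.5 to 25.1 and 21.1 to 31.2, with 7 of 8 at or under 10 in every library. The list for macrophages and megakaryocytes, a lineage known for Pdgfb, summed to 252.7 to 312.5 in WT and 165.2 to 213.9 in GαqKO, nearly all of it Itga2b and Cd68. Both fell, Itga2b from 190.7 ± 27.5 to 110.8 ± 15.2 (log2 fold change -0.78) and Cd68 from 93.0 ± 9.9 to 66.9 ± 12.7 (-0.48; SD, n = 3), while Tyrobp was at 0 in every library and Ptprc, Adgre1, Pf4 and Gp9 were at or under 10. In bulk RNA fewer cells of a type and less RNA per cell cannot be told apart, and the part of these cell types in the Pdgfb values was not tested.

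Of the 12 fibroblast markers, 11 were tested, of which 5 rose and 6 fell in GαqKO, beside 31.8% higher and 34.1% lower over all genes tested. The sum of the 12 was 93192.6 to 99108.1 in WT and 76292.7 to 79523.8 in GαqKO. Those that rose were Dcn (log2 fold change 5.66), Thy1 (5.49), Postn (2.58), Prrx1 (1.9) and Twist1 (0.93), of which Thy1 passed the filter through its GαqKO values alone. Past the thresholds were 4 higher and 2 lower, beside 10.2% and 10.5% of all genes tested. Those that fell were Col5a1 (-1.55), Col1a1 (-1.53), Fn1 (-0.73), Col1a2 (-0.36), Vim (-0.32) and Col3a1 (-0.18). The rise of Pdgfra, itself a gene used to mark fibroblasts, thus stood beside higher values of some such genes and lower values of others. Of the defining markers of glial progenitors, cells that express Pdgfra, Olig1 and Olig2 were at 0 in every library and Sox10 and Bcan were at or under 10.

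The remaining ligands stayed within a narrow range. Pdgfa (ENSMUSG00000025856.16, chr5:138961758-138983435, minus strand), which encodes the A chain that binds the α receptor, had 501.2, 559.5 and 554.7 normalized counts in WT and 590.6, 600.1 and 666.7 in GαqKO. The groups did not overlap but lay close. The log2 fold change was 0.20 ± 0.071 (SE, adjusted p = 0.0236, limma), and the call depended on the fit. It was lost with edgeR (0.16, adjusted p = 0.0975) and DESeq2 (0.15, adjusted p = 0.336) on the recovered reads, in limma without the trend (0.20, adjusted p = 0.0663), and in limma without WT replicate 1 (0.15, adjusted p = 0.0952) or without GαqKO replicate 3 (0.15, adjusted p = 0.121). In addition, 37.7% of the Pdgfa exon length lies within the span, introns included, of 6330403L08Rik on the opposite strand.

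Pdgfc (ENSMUSG00000028019.10, chr3:80943668-81121473, plus strand), whose chain must be cut by a protease before it can bind the α receptor, had 726.8, 740.2 and 762.4 normalized counts in WT and 566.2, 602.4 and 531.7 in GαqKO. All GαqKO libraries were lower. Pdgfc fell with a log2 fold change of -0.39 ± 0.063 (SE, adjusted p = 9.61e-05, limma). The genes tested on chromosome 3 had a median log2 fold change of 0.325, and relative to that median the Pdgfc value was -0.72. The corresponding median on chromosome 8 was 0.292, which took Pdgfrl to -1.49.

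Pdgfd (ENSMUSG00000032006.16, chr9:6168240-6379265, plus strand), the ligand that acts mainly on the β receptor, was close to the limit of detection. It had 5.2, 2.9 and 4.1 normalized counts in WT and 13.1, 2.3 and 2.0 in GαqKO, on 2 to 14 reads per library with recovered reads. The GαqKO values lay on both sides of the WT values. The difference of log2 means was 0.06, no change was detectable at this depth (adjusted p = 0.964 in limma with no filter), and the value ran from -0.66 without GαqKO replicate 1 to 0.96 with DESeq2 (adjusted p = 0.561). It was also below 0, at -0.11, without WT replicate 2.

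The loss of Pdgfb left A and C chains as nearly all of the ligand transcripts. Per kilobase of exon, Pdgfb made up 39.6% ± 2.76, Pdgfc 35.1% ± 1.55 and Pdgfa 25.2% ± 1.48 of the 4 ligands in WT (SD, n = 3). In GαqKO the shares were 0.871% ± 0.315, 47.4% ± 2.98 and 51.3% ± 3.01. Pdgfd held 0.14% ± 0.0418 and 0.36% ± 0.398. The ligand sum was 317 ± 8.89 normalized counts per kb in WT and 178 ± 3.64 in GαqKO, a ratio of 0.563 (exact permutation test, two-sided, p = 0.1, the smallest possible). The log2 ratio of Pdgfa plus Pdgfc counts to Pdgfb plus Pdgfd counts was 1.13, 1.20 and 1.45 in WT and 6.10, 6.85 and 6.89 in GαqKO. It differed by 5.36 between the groups (exact permutation p = 0.1). The share of A and C chains was higher in GαqKO although their amount was not. The sum of Pdgfa and Pdgfc was 1228.0, 1299.8 and 1317.1 normalized counts in WT and 1156.9, 1202.5 and 1198.4 in GαqKO, so every GαqKO library was below every WT library (exact permutation test, two-sided, p = 0.1, the smallest possible).

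**Figure D2:**
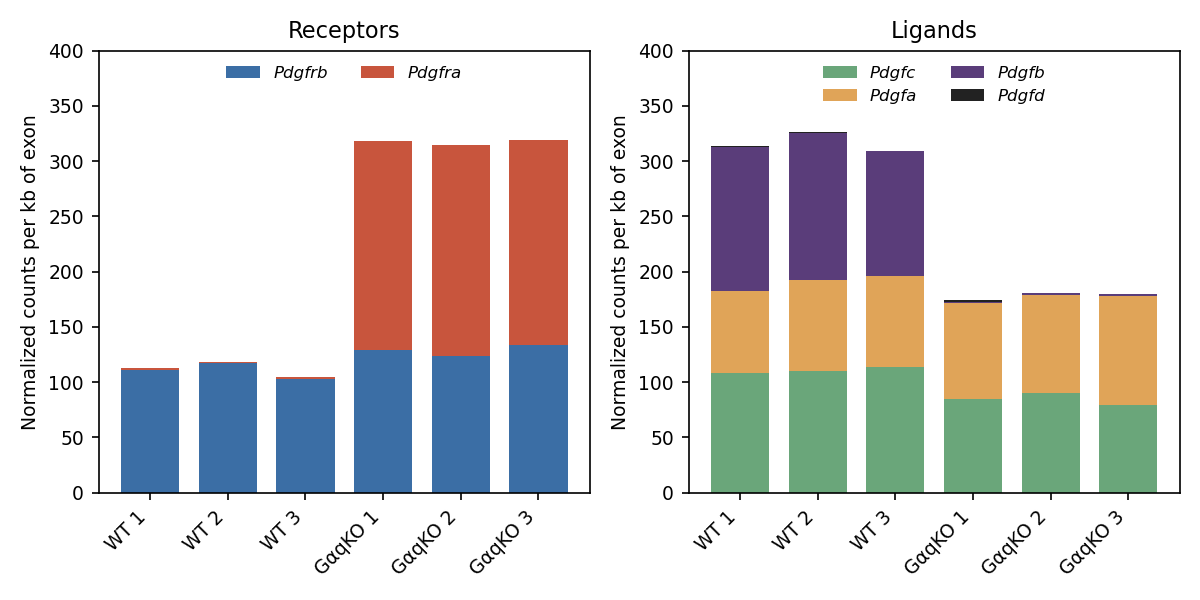
Normalized counts per kb of exon of the receptor genes (left) and ligand genes (right), stacked for each of the 6 libraries from 0. The receptor bars reach 112 on average in WT and 318 in GαqKO, where Pdgfra fills 59.3%, and the ligand bars fall from 317 to 178 as Pdgfb goes from 39.6% to 0.871%.

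The order of the levels per kilobase of exon differed between the genotypes. In WT it was Pdgfb (126), Pdgfc (111), Pdgfrb (110), Pdgfrl (89.5), Pdgfa (79.6), Pdgfra (1.59) and Pdgfd (0.442), and the first 3 could not be ordered because neighbouring ranges overlapped. In GαqKO it was Pdgfra (188), Pdgfrb (129), Pdgfa (91.6), Pdgfc (84.6), Pdgfrl (38.8), Pdgfb (1.56) and Pdgfd (0.632), where Pdgfa and Pdgfc overlapped, as did Pdgfb and Pdgfd. Both orders depend on the length used, and Pdgfb at the head of the WT order is 1 case. With canonical transcripts the share of Pdgfb among the WT ligands was 29.6% ± 2.41, beside 35.9% ± 1.23 for Pdgfc and 34.3% ± 1.62 for Pdgfa (SD, n = 3). The canonical transcript has 2715 bases for Pdgfa, against 6761 bases of annotated exon, and 5407 against 8096 for Pdgfrb. The places of other members can therefore change as well, and the full order by canonical length was not drawn up.

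Set against all genes, 2 of the members had changes of unusual size and the others did not. Of the 6 members tested, 3 were higher (Pdgfra, Pdgfrb and Pdgfa) and 3 lower (Pdgfb, Pdgfrl and Pdgfc) in GαqKO at an adjusted p under 0.05 (limma), where 31.8% of all genes tested were higher and 34.1% lower. Past the study's thresholds, which also ask for a log2 fold change over 1 or under -1, were 1 member higher (Pdgfra) and 2 lower (Pdgfb and Pdgfrl), beside 10.2% and 10.5% of all genes. The groups did not overlap for any of the 6, as for 69.6% of all genes tested. The median log2 fold change was -0.10 over the members and -0.01 over all genes. By absolute log2 fold change, Pdgfra lay at percentile 99.3, Pdgfb at 98.9, Pdgfrl at 82.8, Pdgfc at 49.8, Pdgfrb at 31.5 and Pdgfa at 27.7. Pdgfb was among the genes tested only through its WT values.

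**Figure D3:**
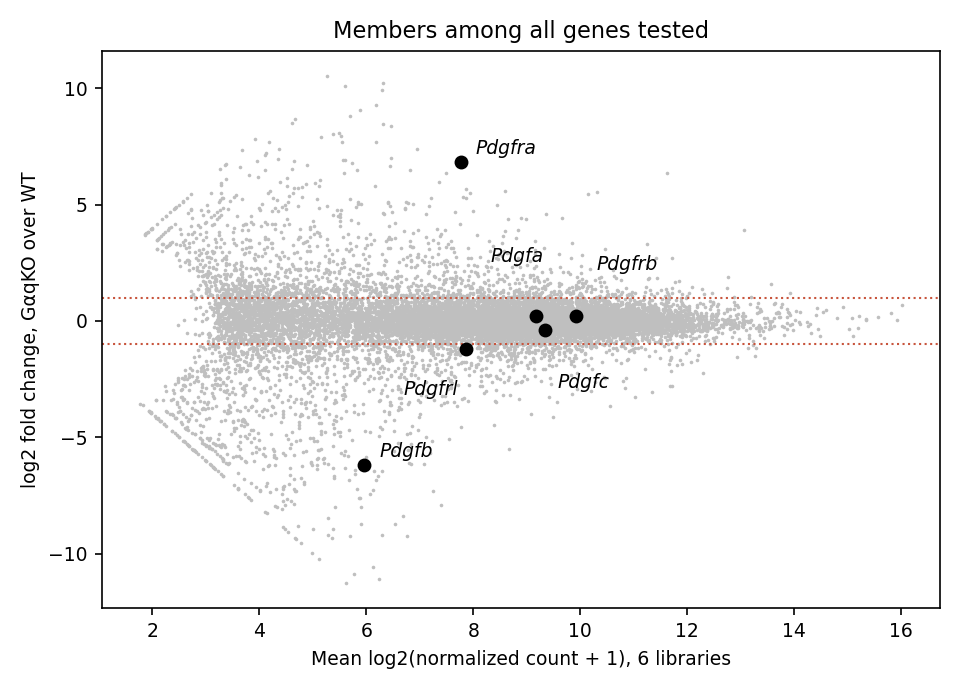
Log2 fold change (GαqKO over WT) against the mean log2(normalized count + 1) over 6 libraries for the 14096 genes tested (grey), with the 6 tested members in black and dotted lines at 1 and -1. Pdgfra at 6.82 and Pdgfb at -6.19 lie at opposite outer edges of the cloud, and Pdgfrb, Pdgfa and Pdgfc lie within its core.

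No gene tested near Pdgfra or Pdgfb changed as much as they did. The nearest tested protein-coding genes around Pdgfra were Chic2, 106.6 kb away with a log2 fold change of 0.34 (adjusted p = 0.000547, limma), and Srd5a3, 929.2 kb away with 0.19 (adjusted p = 0.0861, limma). Within 1 Mb of the Pdgfra start, 5 other genes were tested, with values from 0.19 to 1.87, the highest for Rasl11b. Around Pdgfb, Cbx7 at 24.7 kb fell by 0.62 and Rpl3 at 62.6 kb rose by 0.22 on the log2 scale. Of 36 genes tested within 1 Mb of Pdgfb, 3 were past the thresholds and lower and 1 was higher, from -3.37 for Syngr1 to 3.10 for Enthd1. Around Pdgfrl, 10 genes ran from -2.33 for the overlapping Mtus1 to 0.46 for Asah1, while Slc7a2, only 3.8 kb away, was at 0.15 (adjusted p = 0.0612, limma).

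**Figure D4:**
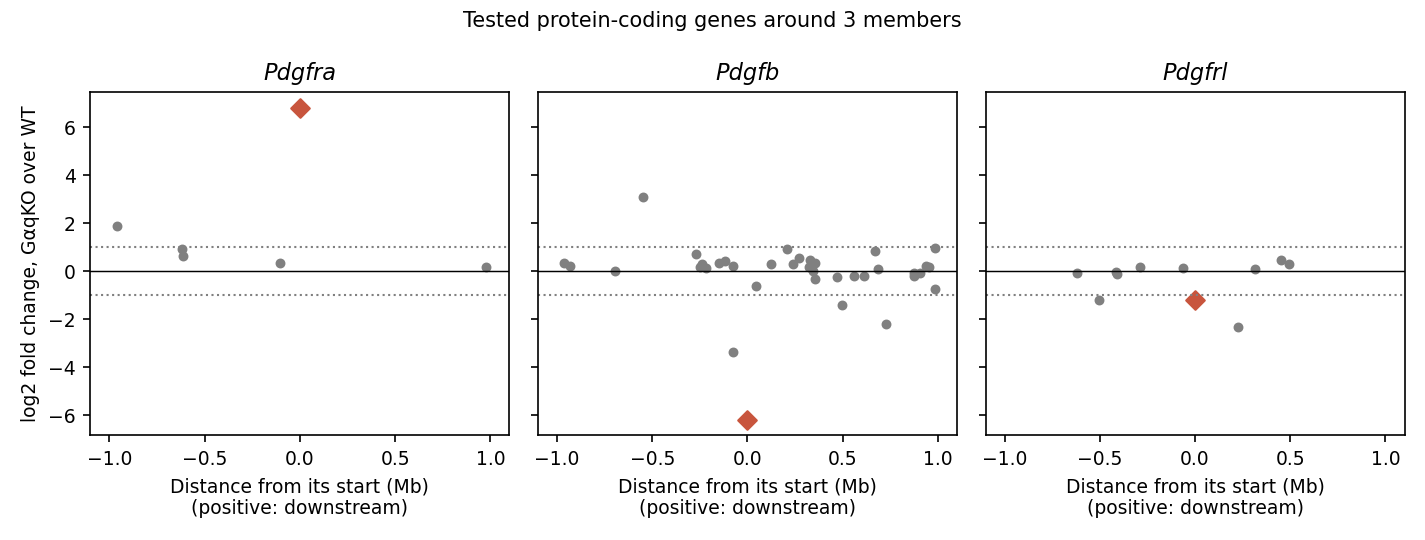
Log2 fold change (GαqKO over WT) of tested protein-coding genes (grey) against the distance of their start from that of Pdgfra, Pdgfb or Pdgfrl (red diamonds) in Mb, with positive distances downstream and dotted lines at 1 and -1. Pdgfra at 6.82 stands above its 5 neighbours, which lie between 0.19 and 1.87, and Pdgfb at -6.19 stands below its 36 neighbours.

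The other members had varied neighbours. Beside Pdgfrb lay Csf1r, a related receptor gene 11.6 kb away, and Slc6a7 at 30.9 kb, with log2 fold changes of -0.45 and -0.19 that did not pass the test. Pdgfa lay 18.6 kb from Prkar1b (1.26) and 165.9 kb from Fam20c (0.31). Pdgfc had Glrb at 60.8 kb (-3.42) and Ctso at 718.4 kb (1.39) beside it, both past the thresholds in opposite directions. Glrb, at 2.8, 5.8 and 3.0 normalized counts in GαqKO, passed the filter through its WT values alone. Casp12 (1.42) and Dync2h1 (-0.58) were the nearest tested genes to Pdgfd, at 795.2 kb and 549.2 kb.

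Many genes followed the same profile over the 6 libraries, which mostly separates the genotypes. The genes with the highest Pearson correlation of log2 values with Pdgfra were Kcnk2, Dcn and Il1rl1 (0.9999 each), but 870 genes, 6.2% of those tested, exceeded 0.99. For Pdgfb these were Mirt1 (0.9997), Tmed10 (0.9997) and Wnt11 (0.9996), and 694 genes exceeded 0.99. Wnt11, a secreted Wnt ligand, went from 279.0 ± 7.6 to 0.7 ± 0.6, and Mirt1 from 329.5 ± 9.2 to 3.8 ± 1.7 normalized counts (SD, n = 3). The nearest profiles to Pdgfrl were those of Pank4, Tnip1 and Col6a1 (0.9995, 0.9994 and 0.9993), and to Pdgfc those of Gm8188, A330076H08Rik and Ctsh (0.9999, 0.9996 and 0.9987). Wnt11, Mirt1, A330076H08Rik and Ctsh passed the filter through their WT values alone. Few genes tracked Pdgfrb (Exosc4, Mgat4b and 3110083C13Rik, 10 genes over 0.99) or Pdgfa (5830454E08Rik, Rpa3 and Trpm4, 2 genes over 0.99). These correlations were taken over the same 6 libraries and describe likeness only.

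The genes that act with the receptors moved in both directions, more often down. Of 54 genes listed around the pathway, 50 were tested, of which 14 were higher, 32 lower and 4 not called at an adjusted p under 0.05 (limma), with a median log2 fold change of -0.29 beside -0.01 over all genes. Past the thresholds were 1 higher and 10 lower. These counts are to be read beside the background of 31.8% higher and 34.1% lower, and 10.2% and 10.5% past the thresholds.

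Among 7 proteases that process PDGF chains, 4 were tested, of which Furin (0.43) and Plau (0.62) were higher and Pcsk7 (-0.26) and Plat (-1.78) lower. Plat, the tissue plasminogen activator that cuts and activates PDGF-CC, had 448.0, 432.3 and 415.3 normalized counts in WT and 100.5, 128.3 and 152.1 in GαqKO. It fell well outside the spread of either group (adjusted p = 3.85e-08, limma). The genes for proteins that bind PDGF or act beside its receptors were all lower, 4 of 4, with a median log2 fold change of -1.64. Thbs1, a matrix glycoprotein, went from 8638.8 ± 345.6 to 1244.2 ± 44.9 (SD, n = 3; log2 fold change -2.79), and Nrp1, a co-receptor, from 1223.7 ± 54.6 to 217.1 ± 5.5 (-2.49). Lrp1 (-0.79) and Sparc (-0.41), which encode an endocytic receptor and a matrix protein that binds the B chain, fell less.

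Of 24 genes for proteins that signal at the activated receptor, 5 were higher, 16 lower and 3 not called. Fyn, a kinase of the Src family, had 343.5, 308.9 and 376.6 normalized counts in WT and 110.8, 82.1 and 92.6 in GαqKO (log2 fold change -1.84, adjusted p = 2.38e-08, limma). The other genes past the thresholds were Grb10 (-1.78), an adaptor, and Pik3r1 (-1.05), a regulatory subunit of PI3-kinase. The 5 that rose were Src (0.64), Yes1 (0.41), Pik3ca (0.70), Rasa1 (0.83) and Shc1 (0.24), so members of the Src family and subunits of PI3-kinase moved in different directions. Relative to the median of its chromosome, Shc1 was no longer called and its sign turned.

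Among 9 genes listed for proteins that remove, dephosphorylate or scaffold the receptors, 2 were higher, 6 lower and 1 not called, with a median of -0.47. Ptprj, a receptor phosphatase that acts on the β receptor, had 167.1, 169.0 and 197.5 normalized counts in WT and 31.9, 32.4 and 29.2 in GαqKO (log2 fold change -2.47, adjusted p = 1.07e-08, limma). Nherf1 (-2.06), a scaffold of the β receptor, also passed the thresholds. The ubiquitin ligase genes Cbl (-0.47) and Cblb (-0.93) fell, whereas Ptpn1 (0.82), a phosphatase of both receptors, rose.

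Transcripts known to be induced by PDGF did not move together. Of 10 such genes, 9 were tested, 5 were higher and 4 lower, and Ccl2 was listed at 0 in all 6 libraries. Has2, a hyaluronan synthase, fell from 1250.4 ± 58.2 to 135.4 ± 11.1 normalized counts (SD, n = 3; log2 fold change -3.20). Egr1, an immediate early gene, fell by 1.19 on the log2 scale, and Fos (-0.86) and Junb (-0.21) were also lower. On the other hand, Ccnd1, a cyclin of the early cell cycle, rose from 1833.6 ± 37.0 to 4638.6 ± 165.5 (1.34), and Ier3 (0.87), Fosl1 (0.45), Cxcl1 (0.44) and Myc (0.21) were also higher. Relative to the medians of their chromosomes, Myc and Fos were no longer called, and Fos also lost its call with edgeR and with DESeq2. The spans of other annotated genes, introns included and on either strand, cover all of the exon length of Plau and 91.6% of that of Rasa1. They cover 82.2% for Fosl1, 67.2% for Yes1, 59.1% for Nrp1, 48.4% for Ccnd1 and 41.5% for Shc1. Such a span need not hold exons at the same place, and how far reads in those exons could be shared was not tested.

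**Figure D5:**
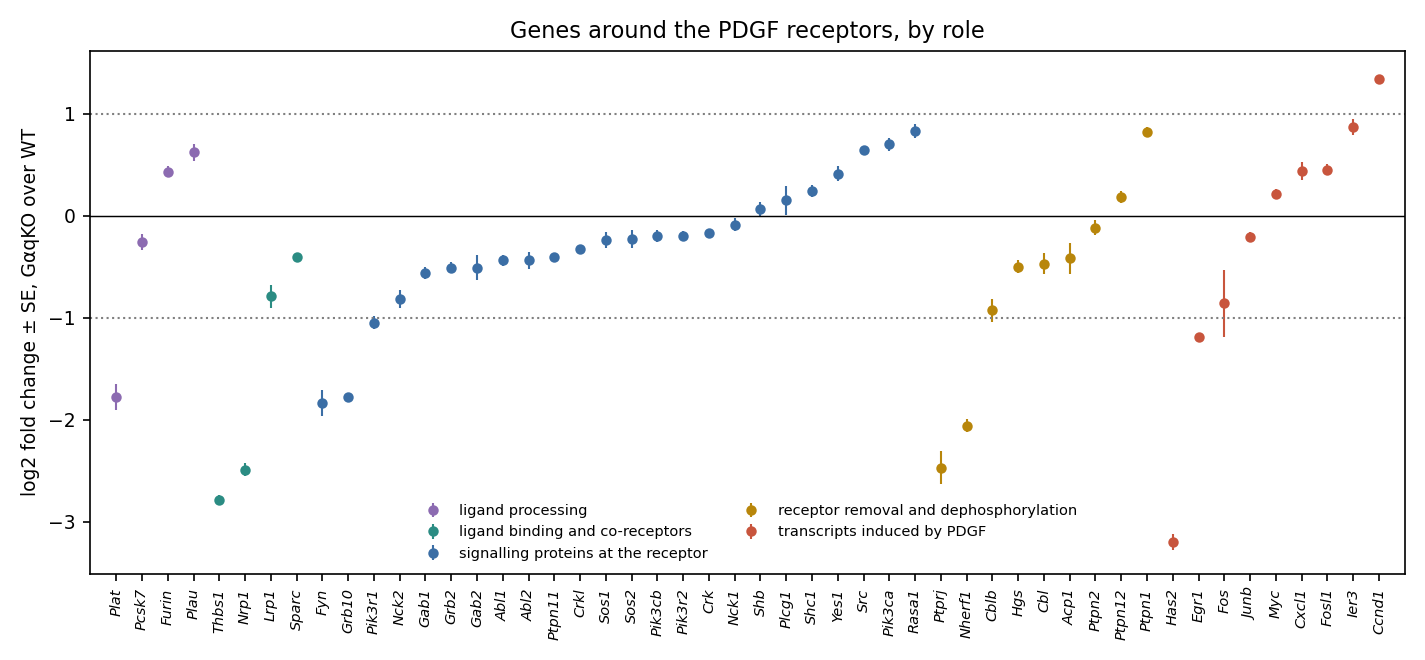
Log2 fold change ± SE (GαqKO over WT, 3 libraries each) of the 50 tested genes around the PDGF receptors, coloured by role and sorted within it, with dotted lines at 1 and -1. All 4 genes for binding proteins and co-receptors lie below 0, Ccnd1 (1.34) is the single gene above 1, and 10 genes lie below -1.

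The relatives of the PDGF system, the type III and vascular endothelial growth factor (VEGF) receptors and their ligands, were listed as 15 genes. Of these, 11 were tested, with 5 higher, 4 lower and 2 not called and a median of -0.03, beside 31.8% higher and 34.1% lower over all genes. Past the thresholds were 2 higher and 3 lower, beside 10.2% and 10.5%. Vegfc, a ligand of lymphatic growth, rose from 72.3 ± 8.7 to 442.5 ± 11.6 normalized counts (SD, n = 3; log2 fold change 2.60). Il34, a ligand of the Csf1r receptor, rose from 170.8 ± 16.6 to 423.8 ± 19.7 (1.31), with 64.3% of its exon length within the spans of other genes. Pgf, the placental growth factor, had 90.8, 114.6 and 121.1 normalized counts in WT and 3.8, 1.2 and 0.0 in GαqKO. Its receptor gene Flt1 fell from 1152.5 ± 30.5 to 273.4 ± 14.5 (-2.07), and Flt4, the receptor gene for VEGF-C, went from 55.3, 63.1 and 35.6 to 3.8, 2.3 and 0.0. Pgf and Flt4 passed the thresholds as well (-5.65 and -4.35), though at so few reads the fitted value depends on the pseudocount. Both passed the filter through their WT values alone. Kit, Flt3, Kdr and Flt3l were under the filter. Csf1r, the other type III receptor gene that passed it, had 15.6 ± 4.8 normalized counts in WT and 11.1 ± 3.6 in GαqKO (SD, n = 3).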

How the data were processed

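RNA from 3 WT and 3 GαqKO MEF samples was poly-A selected and sequenced as paired ends by the authors, who aligned the reads to GRCm39 with Rbowtie2, assigned them to genes of GENCODE release 32 with featureCounts and used DESeq2. The deposited values are a signal, namely normalized counts (gene counts divided by 1 size factor per library). Versions of these tools and the strand setting are not given in the sources used here. Symbols and exon lengths came from GENCODE release 39 on the same build, which matched 56310 of 56953 identifiers. Groups followed the genotype labels.

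Values were taken as log2(normalized count + 1) and tested with limma, letting the prior variance follow the mean. Adjustment by Benjamini-Hochberg covered the 14096 genes that reached 10 normalized counts in 3 or more libraries. The limma p-values set the group difference against the spread between libraries within a group, adjusted toward that of other genes. They do not cover variation among independent lines, whose number was not stated. Thresholds were an adjusted p under 0.05 and a log2 fold change over 1 or under -1. Ratios and sums were compared by exact permutation over the libraries. Values per kilobase used the union of annotated exons. In 5 libraries whole reads were recovered for 100% of values (within 0.01 reads), giving 9853000 to 12229175 reads, which were tested with edgeR and DESeq2 as alternatives. Reads of GαqKO replicate 3 did not pass a check of the unit and were left out of those tests. Other alternatives were TMM scaling, subtraction of chromosome medians, other filters and pseudocounts (0.5 and 5), a replicate block, no trend, and each library left out. Promoters were read from the GRCm39 genome. Some items are not reported here.

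The members and lists were chosen with earlier results of these data known. The rule for names took the 7 members, Gnaq and Gna11, the largest rise and fall past the thresholds in each role, the relatives past them, the nearest tested gene on each side of a member and the 3 genes most like it. Other genes were named after their values were seen. The scripts were tested on simulated data. Tests across genes used limma 3.58.1, DESeq2 1.42.0 and edgeR 4.0.16 in R 4.3.3. Other steps used pandas 2.3.3, scipy 1.17.1 and numpy 2.4.6 in Python 3.11.15, with figures drawn by matplotlib 3.10.9.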

Additional observations from a re-analysis of the deposited data

How the results depend on the processing

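The log2 fold changes of Pdgfra (6.57 to 6.91 over 16 alternatives), Pdgfb (-6.54 to -5.55 over 15), Pdgfrl (-1.49 to -1.16 over 16) and Pdgfc (-0.72 to -0.34 over 16) kept their direction and their side of the threshold. Pdgfb could not be fitted with a filter in every library, which its GαqKO values fail. Pdgfrb lost its call with DESeq2 (0.21). Pdgfa lost it without the trend (0.20), with edgeR (0.16) and with DESeq2 (0.15), and leaving out single libraries gave 0.15 to 0.23. The cause was not tested. With a filter in every library, 831 genes were past the thresholds and higher and 765 lower, beside 1432 and 1486, since fewer genes were tested, and the members' count lost Pdgfb. Of the 46 pathway genes called, between 0 and 8 lost their call under an alternative, most with DESeq2. Replicate numbers did not pair the samples, as deviations of same-numbered libraries correlated at -0.045, -0.148 and -0.064. With the replicate block Pdgfa was at 0.20 (adjusted p = 0.0262, limma) and 1421 and 1478 genes were past the thresholds. With 4 and 7 reads of Pdgfb in GαqKO, and 2 to 14 of Pdgfd, depth limits how precisely these levels are known. Shares by canonical transcript length were an alternative chosen after seeing the data.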
